A study of Mus musculus with 14 samples.

Results

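The caspases and death receptors examined here are 8 mouse genes, Casp2, Casp6, Casp8, Casp9, Casp12, Fas, Tnfrsf10b and Tnfrsf12a, chosen by the gene symbol in the platform annotation. They were covered by 14 of the 45101 probe sets, and each gene was read from its brightest probe set, the one with the highest mean log2 intensity over the 14 arrays. Of the 8 genes, 7 passed the filter on dim probe sets and stood among the 12085 genes tested. The samples were livers of mice labelled lsPERK, a genotype that the series calls knock-out, and of wild-type (WT) mice, profiled 6 h after tunicamycin at 1 mg/kg or with 0.3% DMSO as the control. There were 4 lsPERK tunicamycin, 3 lsPERK control, 4 WT tunicamycin and 3 WT control arrays. Tunicamycin blocks N-linked glycosylation, so that unfolded glycoproteins build up in the endoplasmic reticulum (ER). The kinase PERK (gene Eif2ak3) senses them from the ER membrane and phosphorylates the translation factor eIF2. The labels name no allele, Cre driver, strain, age, sex or time of collection of the controls, and none tells whether the replicates were different animals. Every group held arrays of both high and low Xist signal, so its arrays did not all come from 1 animal. The p-values measure the spread between these samples, part of which may be technical.

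Caspases are cysteine proteases made as inactive zymogens. In the extrinsic pathway a ligand binds a death receptor such as Fas (CD95) or Tnfrsf10b (DR5, the mouse TRAIL receptor), whose cytoplasmic death domain recruits the adaptor Fadd and the initiator Casp8. In the intrinsic pathway cytochrome c from mitochondria assembles Apaf1 and the initiator Casp9, and both pathways lead to executioner caspases, to which Casp6 belongs. Hepatocytes are known for their sensitivity to Fas ligation. Tnfrsf12a (Fn14), the receptor of the cytokine TWEAK, belongs to the same receptor family but has no death domain. CHOP, the transcription factor encoded by Ddit3 and induced through PERK, is known from cultured cells to raise Tnfrsf10b during ER stress.

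The promoters of 4 members are shown because they frame the results below. Tnfrsf12a rose in both genotypes, Fas fell in both, and Casp9 and Casp6 fell by different amounts in lsPERK and WT liver. Each sequence is the 250 bases before the RefSeq start of the gene in build GRCm38.p6, read 5′ to 3′ on the strand of the gene. Capitals mark the GC box GGGCGG on either strand and, in Fas, a match to the AP-1 motif.
Tnfrsf12a, chr17:23677450-23677699, minus strand: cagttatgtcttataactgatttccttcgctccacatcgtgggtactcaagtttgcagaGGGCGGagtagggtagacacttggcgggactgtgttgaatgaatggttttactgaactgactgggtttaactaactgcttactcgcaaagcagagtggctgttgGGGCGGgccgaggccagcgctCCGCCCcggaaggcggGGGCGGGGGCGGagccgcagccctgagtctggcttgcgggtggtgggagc
Fas, chr19:34290409-34290658, plus strand: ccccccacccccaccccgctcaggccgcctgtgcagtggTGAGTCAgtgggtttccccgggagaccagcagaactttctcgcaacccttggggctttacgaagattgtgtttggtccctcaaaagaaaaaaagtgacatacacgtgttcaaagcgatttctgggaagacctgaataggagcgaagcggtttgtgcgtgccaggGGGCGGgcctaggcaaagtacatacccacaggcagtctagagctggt
Casp9, chr4:141793362-141793611, plus strand: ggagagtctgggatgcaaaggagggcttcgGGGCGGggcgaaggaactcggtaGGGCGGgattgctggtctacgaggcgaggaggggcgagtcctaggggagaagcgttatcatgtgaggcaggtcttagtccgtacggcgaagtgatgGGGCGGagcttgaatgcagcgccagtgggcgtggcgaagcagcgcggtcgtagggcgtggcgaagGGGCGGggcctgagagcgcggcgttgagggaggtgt
Casp6, chr3:129901165-129901414, plus strand: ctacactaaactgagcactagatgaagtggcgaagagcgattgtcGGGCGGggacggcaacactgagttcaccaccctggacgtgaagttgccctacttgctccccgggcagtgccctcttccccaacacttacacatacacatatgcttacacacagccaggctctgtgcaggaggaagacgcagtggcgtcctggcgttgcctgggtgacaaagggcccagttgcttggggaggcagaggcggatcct
The letters of 8 motifs were searched on both strands of these windows, which were found for 7 of the 8 members. The composite C/EBP-ATF element that ATF4 and CHOP bind (TGATGNAA), the cyclic AMP response element (TGACGTCA), an unfolded protein response element (TGACGTGG), the ER stress element and the TATA box (TATAAA) matched in 0 of the 7 windows. These letters occurred in 3.45%, 1.55%, 0.563%, 0.113% and 12.4% of 32851 mouse promoter windows of the same length. AP-1 (TGANTCA) matched in Fas only, at −211 to −205 from the start, and in 6.75% of all windows. The GC box matched in 5 of the 7 and in 32.7% of all windows. Tnfrsf12a held 5 GC boxes, where 1.93% of all windows held 5 or more, and Casp9 held 4, where 4.09% held 4 or more. These shares were not matched for base composition. G and C made up 58.8% of the Tnfrsf12a and 66.0% of the Casp9 window, against a median of 52.4% over all windows. The CCAAT box, whose letters also open the ER stress element, matched in Casp8, Casp2 and Casp12 and in 33.8% of all windows.

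The deposited values were linear intensities with array medians from 34.4 to 53.4, and the values below are quantile normalized between arrays. A log2 difference depends on this scaling. The median of all genes in the WT response stood at −0.13 on the normalized scale and at 0.30 in the values as deposited, and in the difference of responses (lsPERK minus WT) at 0.08 and −0.42. Of the called genes, 44.2% were higher in the WT response on the normalized scale against 83.7% as deposited. In the lsPERK response it was 53.7% against 58.3%, and 71.7% after median centring. For lsPERK against WT after tunicamycin it was 52.4% against 26.5%, and for the difference of responses 51.3% against 6.79%. Eif2ak3 averaged 281 in lsPERK tunicamycin, 140 in lsPERK control, 1897 in WT tunicamycin and 338 in WT control livers. Between tunicamycin livers lsPERK minus WT was log2 −2.75 (limma adjusted p = 1.47e-07), and the control difference of −1.27 did not pass (adjusted p = 0.309). Whether its probe set lies in a deleted part is not given in the sources used here. Ddit3 averaged 1269, 233, 16284 and 235 in the same order of groups.

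**Figure D1:**
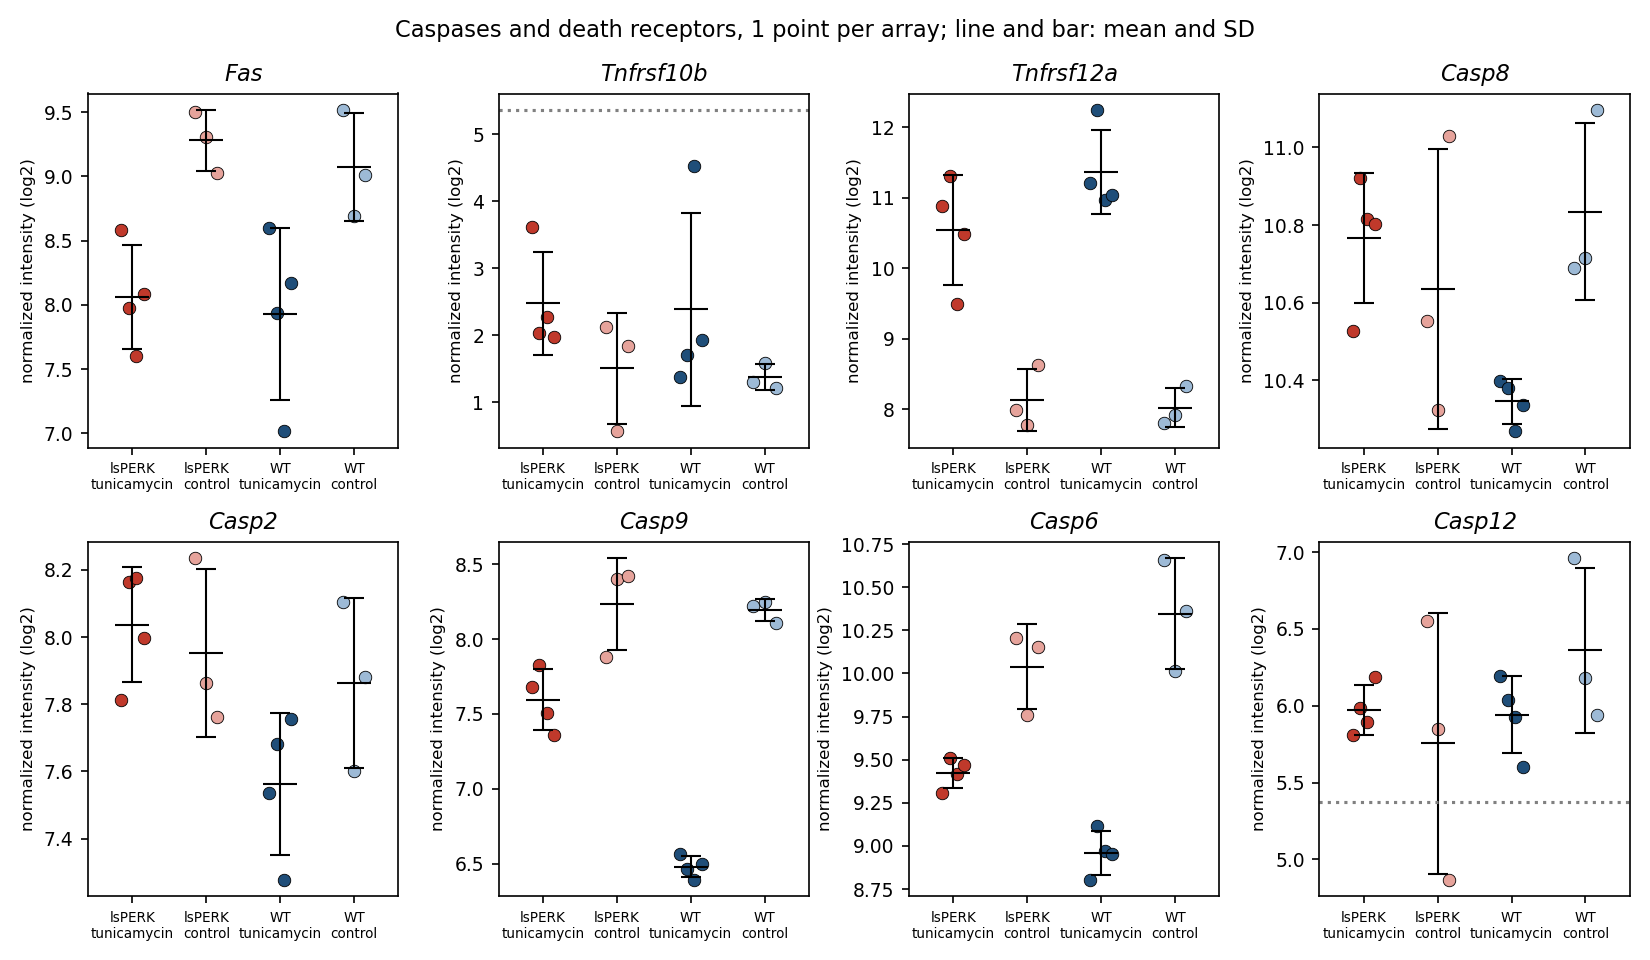
Normalized intensity (log2) of the 8 members on each of the 14 arrays, by group, with the mean and SD drawn as a line and bar. Tnfrsf12a is higher and Fas and Casp6 are lower in both tunicamycin groups, Casp9 averages log2 6.48 in WT tunicamycin, and the dotted line marks the filter threshold of log2 5.37 where a panel reaches it.

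Of the receptors, Tnfrsf12a rose and Fas fell after tunicamycin in both genotypes, and Tnfrsf10b stayed under the filter threshold on all 14 arrays. Tnfrsf12a read 1887, 2528, 721 and 1429 in lsPERK tunicamycin livers, against 254, 219 and 396 in lsPERK controls. In WT livers it read 2370, 4865, 2006 and 2103 after tunicamycin and 224, 243 and 322 in controls. Every tunicamycin array lay above every control array of its genotype, with the lowest lsPERK tunicamycin value on replicate 3 and the highest WT value on replicate 2. The rise was 5.31-fold in lsPERK liver (log2 2.41, SE 0.39, limma adjusted p = 8.12e-04, n = 4 and 3). It was 10.2-fold in WT liver (log2 3.35, SE 0.39, adjusted p = 1.01e-05, n = 4 and 3). Both calls held under all 25 alternative settings tried.

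Fas read 383, 252, 194 and 271 in lsPERK tunicamycin livers and 724, 635 and 523 in lsPERK controls. After tunicamycin WT livers read 387, 246, 129 and 288, against 734, 414 and 515 in WT controls. In neither genotype did the tunicamycin and control arrays overlap, although WT tunicamycin replicate 1 and WT control replicate 2 came close. Fas fell by 1.22 on the log2 scale in lsPERK liver (SE 0.32, limma adjusted p = 0.0204), a 2.33-fold lower level. In WT liver it fell by 1.14 (SE 0.32, adjusted p = 0.00982), 2.21-fold. The lsPERK call was lost without lsPERK tunicamycin replicate 3 or without lsPERK control replicate 1 or 2 (−1.07, −1.11 and −1.20, adjusted p = 0.0553, 0.0691 and 0.0700), and the WT call without WT control replicate 1 (−0.92, adjusted p = 0.0538). In the values as deposited neither passed, at −1.24 in lsPERK (adjusted p = 0.0966) and −0.61 in WT liver (adjusted p = 0.279).

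Tnfrsf10b gave no usable level. Its brighter probe set read 3.95 to 12.2 in lsPERK tunicamycin, 1.48 to 4.35 in lsPERK control, 2.62 to 23.0 in WT tunicamycin and 2.33 to 3.02 in WT control livers, all under the threshold of 41.5. The other probe set read 1.13 to 2.04, 1.04 to 1.25, 1.57 to 5.41 and 1.14 to 1.34 in the same order of groups. Since every group lay under the threshold, no fold change is given. Without the filter the gene did not pass in the lsPERK response (limma adjusted p = 0.553) or in the WT response (adjusted p = 0.382), and a change of this receptor was not detectable with these probe sets.

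Among the initiator caspases, Casp9 fell in both genotypes and further in WT liver, Casp8 passed in WT liver alone, and Casp2 passed in neither response. Casp9, the protease of the apoptosome, read 205, 227, 182 and 164 in lsPERK tunicamycin livers, against 235, 338 and 343 in lsPERK controls. WT tunicamycin livers read 94.6, 88.4, 83.9 and 90.4, against 298, 304 and 276 in WT controls. The 4 WT tunicamycin arrays lay close together and under all other arrays. Casp9 fell by 0.64 on the log2 scale in lsPERK liver (SE 0.15, limma adjusted p = 0.0122), 1.56-fold, and by 1.71 in WT liver (SE 0.15, adjusted p = 1.10e-06), 3.28-fold. The WT call held in all alternatives, whereas the lsPERK call was lost without lsPERK control replicate 2 (−0.56, adjusted p = 0.0668) or 3 (−0.55, 0.0505), after median centring (−0.58, 0.0505) and in the values as deposited (−0.70, 0.147). These differences were close to the −0.64 of the normalized values on all arrays.

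Casp8, the initiator that death receptors recruit through Fadd, read 1475, 1938, 1803 and 1786 in lsPERK tunicamycin livers and 1502, 1281 and 2091 in lsPERK controls. In WT livers it read 1349, 1332, 1233 and 1292 after tunicamycin, against 1651, 1682 and 2191 in controls. The lsPERK groups overlapped and the WT groups did not. The log2 difference was 0.13 in lsPERK liver (95% interval −0.20 to 0.46, limma adjusted p = 0.641). In WT liver it was −0.49 (SE 0.15, adjusted p = 0.0184), 1.40-fold lower, but −0.26 after median centring (adjusted p = 0.187), 0.03 in the values as deposited (adjusted p = 0.925) and −0.36 without WT control replicate 3 (adjusted p = 0.103). Set against the median of all genes, Casp8 in WT liver stood at −0.36 on the normalized scale and at −0.27 as deposited.

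Casp2, which is activated on the Pidd1 and Cradd platform, read 225, 287, 289 and 255 in lsPERK tunicamycin livers and 301, 233 and 217 in lsPERK controls. WT livers read 186, 205, 155 and 216 after tunicamycin and 275, 194 and 236 in controls. The tunicamycin and control arrays overlapped in both genotypes. The log2 difference was 0.08 in lsPERK liver (95% interval −0.28 to 0.45, limma adjusted p = 0.808) and −0.30 in WT liver (95% interval −0.66 to 0.06, adjusted p = 0.163).

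Casp6, an executioner caspase that cleaves nuclear lamins, fell in both genotypes. It read 634, 729, 683 and 707 in lsPERK tunicamycin livers, against 1182, 867 and 1139 in lsPERK controls. WT livers read 447, 554, 501 and 496 after tunicamycin and 1618, 1035 and 1316 in controls. No tunicamycin array reached the lowest control array of its genotype, and the WT tunicamycin arrays were under all lsPERK tunicamycin arrays. Casp6 fell by 0.61 on the log2 scale in lsPERK liver (SE 0.15, limma adjusted p = 0.0133), 1.53-fold. The fall in WT liver was −1.39 (SE 0.15, adjusted p = 5.56e-06), 2.61-fold, and held in all alternatives. The lsPERK call was lost without lsPERK control replicate 1 (−0.53, adjusted p = 0.0539) and in the values as deposited (−0.62, adjusted p = 0.0911).

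Casp12, a mouse caspase associated with the ER and grouped by sequence with the inflammatory caspases, lay close to the filter threshold of 41.5. It read 56.1, 63.4, 59.4 and 73.0 in lsPERK tunicamycin livers and 93.9, 57.5 and 29.1 in lsPERK controls. WT livers read 73.1, 65.8, 60.9 and 48.5 after tunicamycin and 125, 72.6 and 61.3 in controls. The groups overlapped in every comparison. The log2 difference was 0.21 in lsPERK liver (95% interval −0.53 to 0.96, limma adjusted p = 0.749) and −0.42 in WT liver (95% interval −1.17 to 0.33, adjusted p = 0.348). Intervals of this width do not show that Casp12 was stable.

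**Figure D2:**
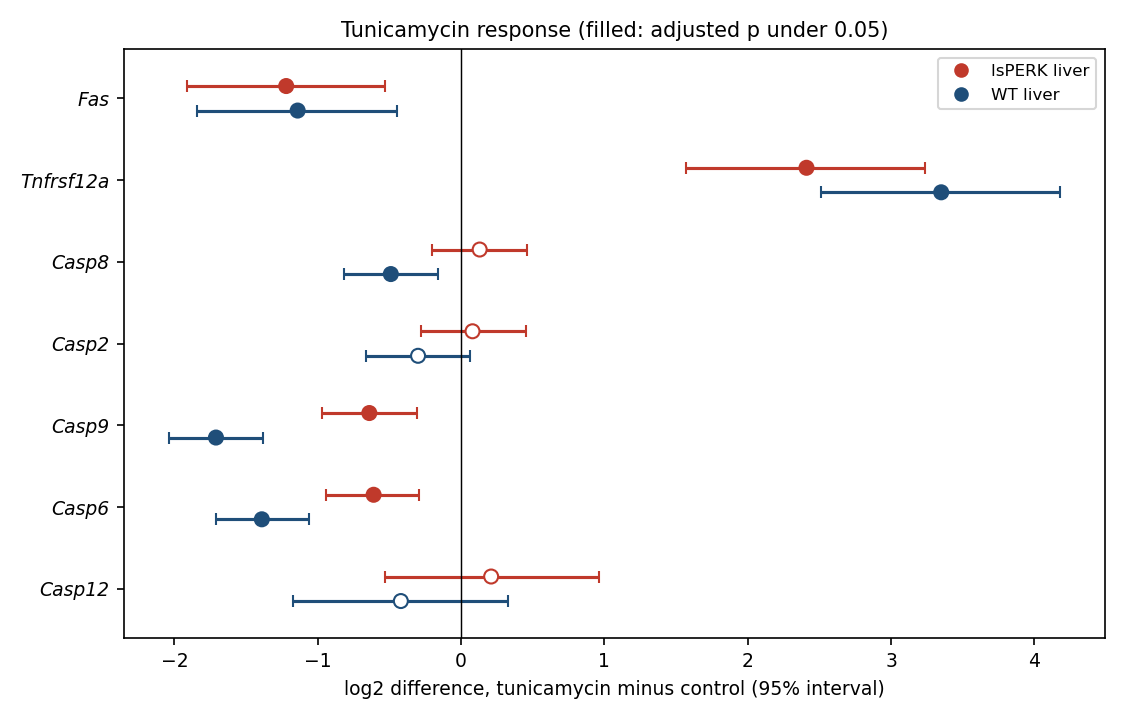
Log2 difference, tunicamycin minus control, of the 7 tested members in lsPERK and WT liver, with 95% intervals and filled points at an adjusted p under 0.05. Tnfrsf12a stands at 2.41 and 3.35, Fas at −1.22 and −1.14, Casp9 at −0.64 and −1.71 and Casp6 at −0.61 and −1.39 in lsPERK and WT liver.

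In the lsPERK response 1 of the 7 tested members was called higher, where 8.42% of all genes were, and 3 were called lower, where 7.27% were. In the WT response 1 of 7 was called higher (20.7% of all genes) and 4 lower (26.0% of all genes). Their median log2 difference was 0.08 in lsPERK and −0.49 in WT liver, against medians of −0.02 and −0.13 over all 12085 genes. The lsPERK count of 4 called members became 2 without lsPERK control replicate 1 or 2. In the values as deposited 1 member was called in lsPERK and 3 in WT liver, where 5.71% and 35.6% of all genes were. Because the members were named with earlier results of these data known, the counts are descriptions of the 8 genes.

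The effect of PERK loss was read first in control livers, where 0 of the 7 members passed and 0% of all genes did. At an unadjusted limma p under 0.05 there were also 0 members, and 512 of all genes. The log2 differences of lsPERK minus WT control ran from −0.61 for Casp12 (95% interval −1.40 to 0.19) to 0.21 for Fas (95% interval −0.54 to 0.95). Casp9 stood at 0.04 (95% interval −0.31 to 0.40).

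After tunicamycin, 4 caspases were higher in lsPERK than in WT liver. Casp9 averaged log2 7.59 ± 0.20 in lsPERK and 6.48 ± 0.07 in WT tunicamycin livers (SD, n = 4 each), a 2.16-fold difference (log2 1.11, SE 0.14, limma adjusted p = 4.51e-05). Casp6 differed by 0.47 (SE 0.14, adjusted p = 0.0181), Casp2 by 0.47 (SE 0.16, adjusted p = 0.0291) and Casp8 by 0.42 (SE 0.14, adjusted p = 0.0337). The 4 lsPERK arrays lay above the 4 WT arrays for each of these genes. Thus 4 of 7 members were called higher, where 18.5% of all genes were, and 0 lower, where 16.8% were (35.3% in either direction). The Casp9 call held in all alternatives. The count of 4 became 1 without WT tunicamycin replicate 1, and 2 without WT tunicamycin replicate 3 or without lsPERK tunicamycin replicate 3 or 4. With the β-actin 3′ to 5′ ratio as a covariate it was 2, where Casp8 (0.43, adjusted p = 0.0558) and Casp2 (0.44, adjusted p = 0.0635) kept about the same size and missed the threshold. In the values as deposited and after median centring it was also 2, Casp9 higher and Tnfrsf12a lower. The Casp8 call was lost without lsPERK tunicamycin replicate 2, 3 or 4 or any 1 of the WT tunicamycin replicates, and the Casp2 call without lsPERK tunicamycin replicate 2, 3 or 4 or WT tunicamycin replicate 1 or 3, with adjusted p up to 0.0935. The Casp6 call was lost without WT tunicamycin replicate 1 (adjusted p = 0.0546).

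For the receptors after tunicamycin, Tnfrsf12a averaged log2 10.54 ± 0.77 in lsPERK and 11.37 ± 0.60 in WT livers (SD, n = 4 each). The difference of −0.83 did not pass (95% interval −1.60 to −0.06, limma adjusted p = 0.0917). It passed at −0.93 with the Xist status of the array as a covariate (adjusted p = 0.0425), at −1.08 without lsPERK tunicamycin replicate 2 (0.0351), at −0.91 after median centring (0.0425) and in the values as deposited (0.0464). In the other 21 of 25 alternatives it did not pass, with estimates as small as −0.48 and adjusted p up to 0.270. Fas stood at 0.13 (95% interval −0.51 to 0.77, adjusted p = 0.784).

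Whether the tunicamycin response itself differed between genotypes was tested by the difference of both responses (lsPERK minus WT). It passed for Casp9 (1.07, SE 0.22, limma adjusted p = 0.00399) and Casp6 (0.77, SE 0.21, adjusted p = 0.0210), which both fell less in lsPERK liver. These were 2 of 7 members called higher, where 10.2% of all genes were, with 0 lower, where 9.67% were (19.9% in either direction). Casp8 had a similar estimate and missed the threshold (0.62, 95% interval 0.15 to 1.09, adjusted p = 0.0624), and it passed with Xist status as a covariate (adjusted p = 0.0397) and without lsPERK control replicate 3 (0.00973) or lsPERK tunicamycin replicate 1 (0.0455). In the other 21 of 24 alternatives Casp8 did not pass. It stood at 0.12 in the values as deposited (adjusted p = 0.802) and at 0.53 after median centring (0.113). For Tnfrsf12a the estimate was −0.94 (95% interval −2.12 to 0.24, adjusted p = 0.266) and for Fas −0.08 (95% interval −1.06 to 0.91, adjusted p = 0.934). The Casp6 call was lost without lsPERK control replicate 2 (adjusted p = 0.0555) or WT control replicate 1 (0.0521). In the values as deposited neither Casp9 (0.58, adjusted p = 0.317) nor Casp6 (0.22, adjusted p = 0.664) passed, while their differences from the median of all genes were 0.99 and 0.63 there and 0.99 and 0.69 on the normalized scale.

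**Figure D3:**
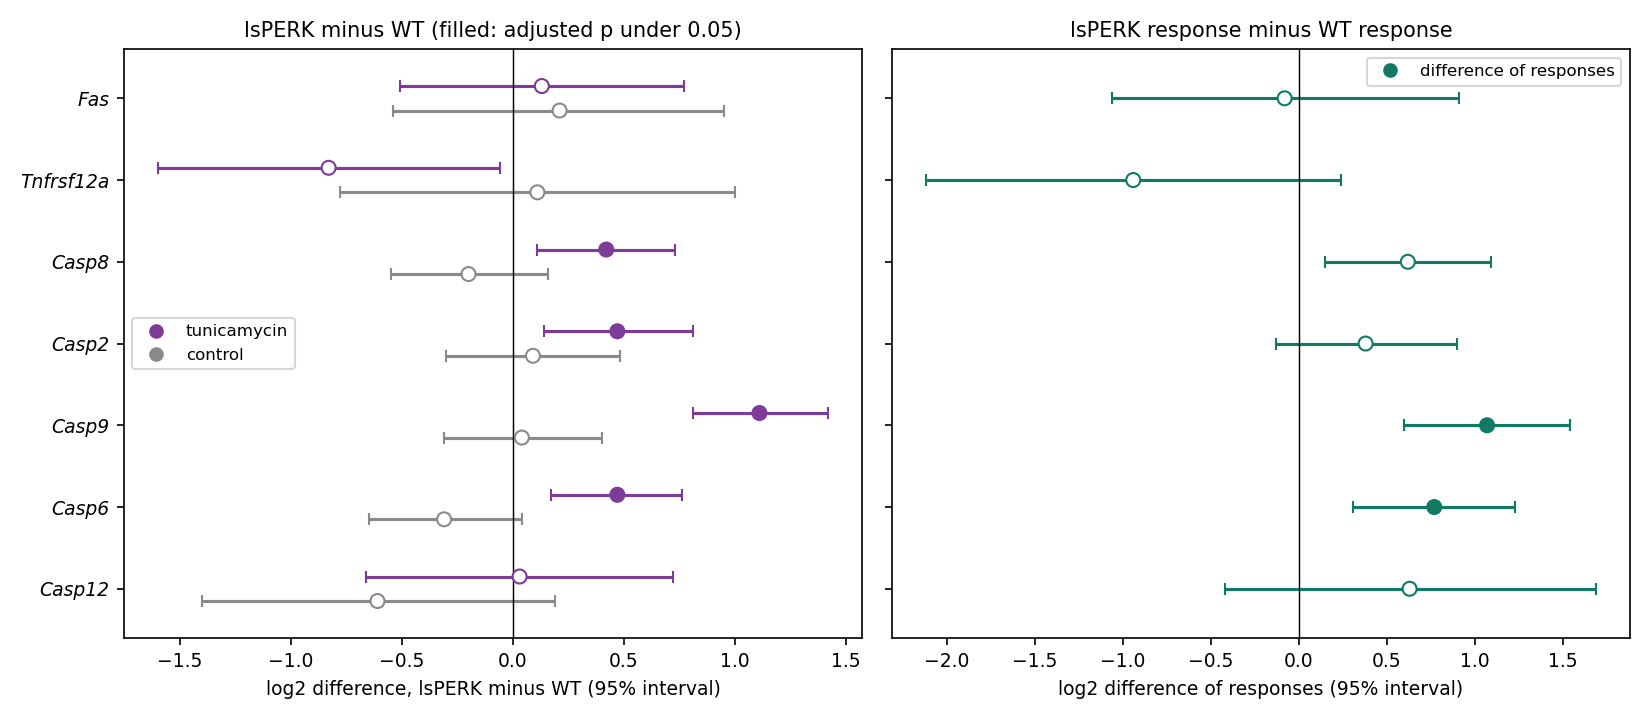
Log2 differences of the 7 tested members with 95% intervals, lsPERK minus WT after tunicamycin and in controls (left) and the lsPERK response minus the WT response (right), with filled points at an adjusted p under 0.05. After tunicamycin Casp9, Casp6, Casp2 and Casp8 are filled on the left at 1.11, 0.47, 0.47 and 0.42, no control point is filled, and Casp9 and Casp6 are filled on the right at 1.07 and 0.77.

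Other probe sets of the same genes were read as a check, with each of the 21808 kept probe sets of 1 gene tested. The second probe set of Tnfrsf12a rose by log2 2.93 (SE 0.40) in lsPERK and 3.24 (SE 0.40) in WT liver. On that probe set lsPERK minus WT after tunicamycin was −0.61 (limma adjusted p = 0.244). Its difference of responses was −0.31 (adjusted p = 0.778), and neither passed. A second, dimmer probe set of Casp9 read 3.28, 36.5, 55.0 and 53.4 in lsPERK tunicamycin, 15.3, 24.5 and 64.1 in lsPERK control, 4.35, 5.01, 6.72 and 5.67 in WT tunicamycin and 18.0, 72.0 and 51.3 in WT control livers. It too was low in WT tunicamycin livers, all under the threshold of 41.5, and was called lower in the WT response (adjusted p = 0.0177). This dimmer probe set stood above the threshold on only 5 arrays, 0 of them WT tunicamycin and 2 WT control. With the WT tunicamycin level unmeasured, it gives no usable size of the Casp9 fall and is no separate check of it. The same probe set did not pass in the lsPERK response (adjusted p = 0.905) or for the difference of responses (2.67, SE 1.28, adjusted p = 0.184). For Casp12 the second probe set stood at −0.08 in lsPERK and 0.09 in WT liver and did not pass. The third probe set of Casp9 and the second of Casp6 lay under the threshold on all arrays, and Fas, Casp8 and Casp2 had 1 probe set each.

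The genes whose log2 intensity followed a member most closely over the 14 arrays were named by Pearson's r, as a description of arrays that share 4 groups. For Casp9 they were Ago1, an Argonaute protein (r = 0.985), Lrp1, an endocytic receptor (0.983), and Ndst2, an enzyme of heparan sulphate synthesis (0.982). Lrp1 stood at −1.32 in the lsPERK and −3.14 in the WT response, and Ago1 at −0.76 and −2.15. For Tnfrsf12a they were Tmem214 (0.974), the ER protein disulphide isomerase family member Txndc5 (0.970) and Brwd1 (0.968). Casp6 was followed by Smim26 (0.966), 1810019D21Rik (0.958) and Prxl2c (0.954). The values for Fas were lower, with Rnf213 (0.942), the fatty acid desaturase Fads2 (0.903) and Add3 (0.891), as were those for Casp8, with the erythropoietin receptor Epor (0.885), Tacc1 (0.884) and Fbxl8 (0.882).

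Around these members, 6 lists held 42 other genes of cell death, of which 31 were tested. In the lsPERK response 3 were called higher and 2 lower (16.1% called, against 15.7% of all genes), and in the WT response 7 higher and 6 lower (41.9%, against 46.7%). These shares lay near those of all genes, and the median log2 difference was −0.03 in lsPERK and −0.14 in WT liver. In the values as deposited the counts were 0 higher and 2 lower in lsPERK and 11 higher and 2 lower in WT liver. Of all genes, 5.71% and 35.6% were called there.

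Among 7 inhibitors of caspases and their antagonists, 1 was higher and 1 lower in lsPERK liver, and 2 were higher and 2 lower in WT liver. Cflar, the FLIP protein that blocks Casp8 at death receptors, rose by log2 0.48 in lsPERK (SE 0.14, limma adjusted p = 0.0298) and by 1.12 in WT liver (SE 0.14, adjusted p = 1.68e-05). Its responses differed by −0.64 (adjusted p = 0.0333), and the lsPERK rise did not pass in the values as deposited (0.49, adjusted p = 0.226). Birc2, the ubiquitin ligase cIAP1, stood at 0.20 in lsPERK (adjusted p = 0.219) and rose by 0.93 in WT liver (SE 0.10, adjusted p = 7.35e-06), a difference of responses of −0.72 (adjusted p = 0.00398). Its relative Birc3, cIAP2, fell by 1.19 in lsPERK (SE 0.27) and by 2.05 in WT liver (SE 0.27), and the difference of 0.86 did not pass (adjusted p = 0.147).

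Among 10 adaptors and platforms that activate caspases, 1 was higher and 1 lower in lsPERK liver, and 4 were higher and 2 lower in WT liver. Tradd, the adaptor of TNF receptor 1, stood at −0.44 in lsPERK (adjusted p = 0.106) and fell by 1.27 in WT liver (SE 0.17, adjusted p = 4.11e-05). The Tradd responses differed by 0.83 (limma adjusted p = 0.0286), but did not pass as deposited (0.28, adjusted p = 0.594). Cradd, the adaptor of Casp2, fell by 0.88 in lsPERK (SE 0.15) and by 0.93 in WT liver (SE 0.15), where it did not pass as deposited (−0.41, adjusted p = 0.154). Daxx, a protein that binds the death domain of Fas, stood at 0.21 in lsPERK (adjusted p = 0.317) and rose by 0.71 in WT liver (SE 0.13, adjusted p = 4.54e-04). Its difference of responses did not pass (−0.50, adjusted p = 0.0710), though it did as deposited (−1.12, adjusted p = 0.0151).

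Of 5 other receptors of the family, 0 were called in lsPERK and 1 in WT liver. Tnfrsf1a, the TNF receptor 1, stood at 0.24 in lsPERK (adjusted p = 0.175) and fell by 0.42 in WT liver (adjusted p = 0.00617), but the WT value was 0.13 as deposited (adjusted p = 0.698). The Tnfrsf1a responses differed by 0.66 (limma adjusted p = 0.00951), but did not pass as deposited (0.13, adjusted p = 0.817). The single tested ligand, Tnfsf10 (TRAIL), stood at −1.03 in lsPERK (adjusted p = 0.0533) and fell by 1.17 in WT liver (SE 0.34, adjusted p = 0.0109), with −0.84 as deposited (adjusted p = 0.134). Its difference of responses of 0.14 did not pass (adjusted p = 0.882). Of 3 other caspases none passed in either response, with values from −0.33 to 0.63 in lsPERK and −0.65 to −0.14 in WT liver. Of 5 caspase substrates and nucleases, Parp1, a poly-ADP-ribose polymerase cleaved by caspases, rose by 0.39 in lsPERK and 0.37 in WT liver (SE 0.11 each). The lsPERK rise did not pass as deposited (0.41, adjusted p = 0.351).

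**Figure D4:**
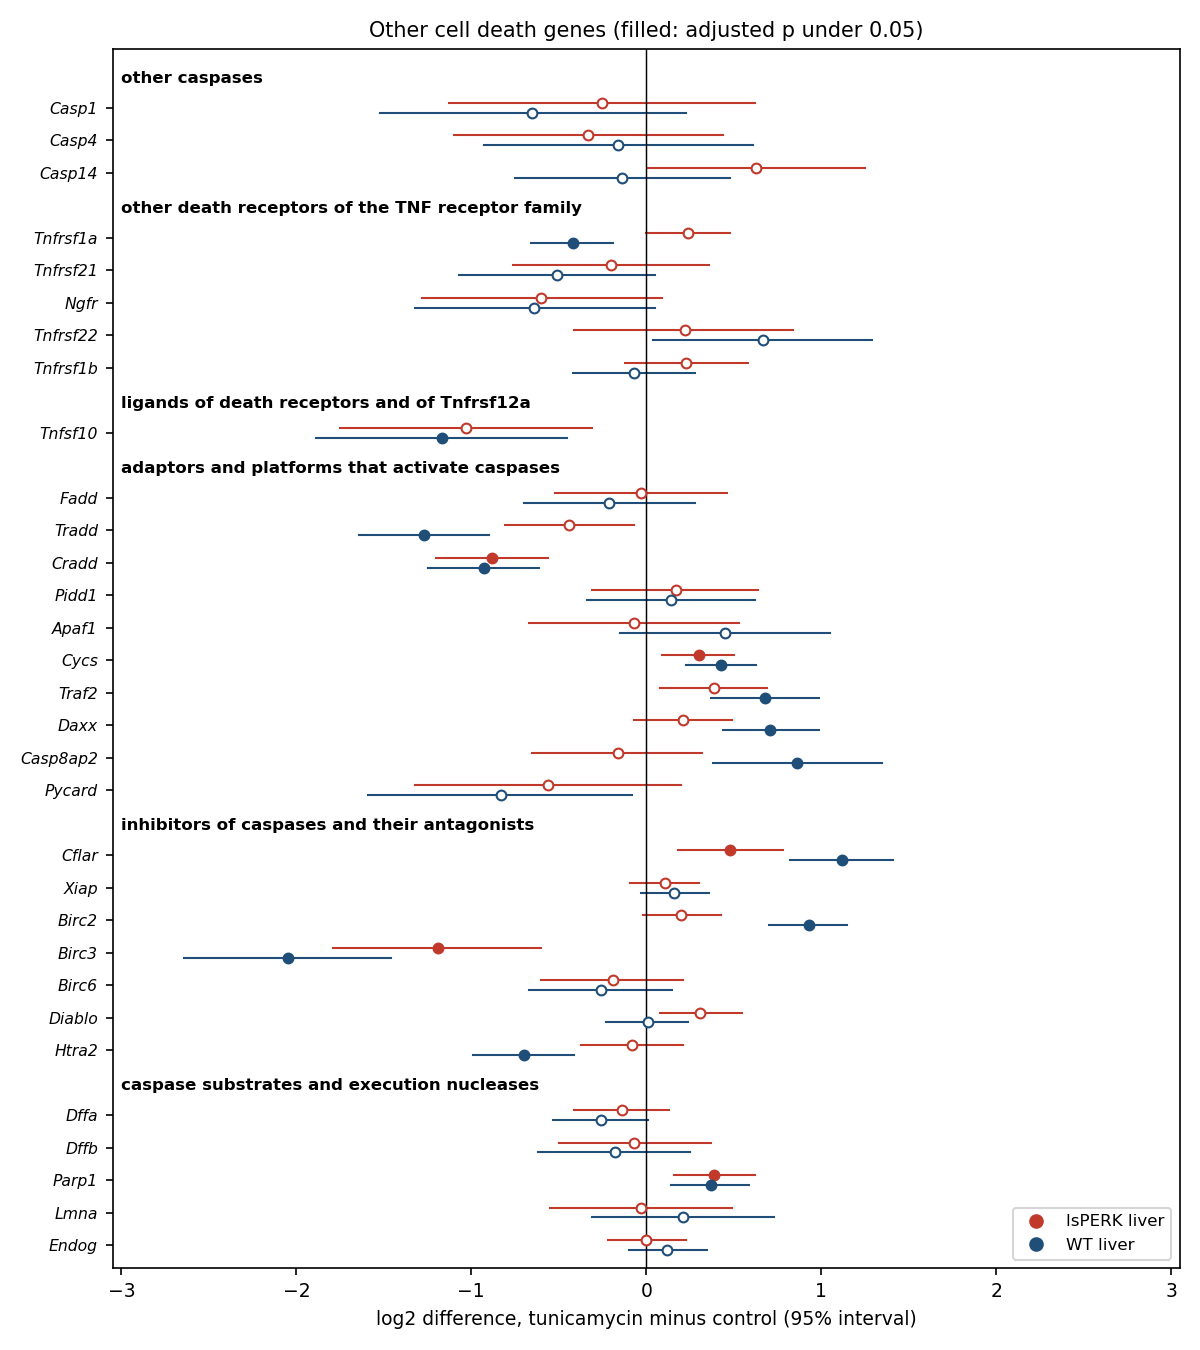
Log2 difference, tunicamycin minus control, of the 31 tested genes of the 6 lists in lsPERK and WT liver, with 95% intervals and filled points at an adjusted p under 0.05. Cflar and Birc2 stand at 1.12 and 0.93 in WT liver and at 0.48 and 0.20 in lsPERK liver, and Birc3 lies farthest to the left at −2.05 in WT liver.

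Death receptors and caspases are made by several cell types of the liver, and in bulk tissue fewer cells of a type and less RNA per cell cannot be told apart. The 6 hepatocyte markers summed to 94147 to 99306 in lsPERK tunicamycin, 90600 to 97726 in lsPERK control, 98739 to 105615 in WT tunicamycin and 92947 to 96911 in WT control livers. Of them Tat, the tyrosine aminotransferase, rose in WT liver (log2 0.88, limma adjusted p = 6.30e-04) and 0 passed in lsPERK liver. The Tat responses differed by −0.83 (adjusted p = 0.0245). The 6 macrophage and Kupffer cell markers summed to 4696 to 6950, 4870 to 12421, 3033 to 8996 and 4752 to 12367 in the same order of groups. None of the 6 passed in either response, although the medians of their sums were lower in both tunicamycin groups, as Fas was. The medians of the sums were also lower for the endothelial, stellate and fibroblast, lymphocyte and neutrophil lists below, but a sum follows its brightest markers. The median log2 difference of single markers was −0.57 in lsPERK and −0.63 in WT liver for macrophages, against 0.01 and −0.07 for the endothelial list. It was −0.29 and −0.48 for stellate cells and fibroblasts, −0.81 and −0.36 for lymphocytes and −1.42 and −0.71 for neutrophils. Of 5 endothelial markers 0 passed in lsPERK and 2 fell in WT liver, Kdr and Stab2, with sums of 1886 to 2068, 2140 to 2633, 1307 to 2044 and 1782 to 2565. Kdr stood at −0.34 in lsPERK and −0.65 in WT liver, and Stab2 at −0.59 and −0.70. Neither difference of responses passed (limma adjusted p = 0.414 for Kdr and 0.858 for Stab2). Cdh5 stood at 0.13 in lsPERK and 0.24 in WT liver, Tek at 0.01 and 0.21 and Pecam1 at 0.32 and −0.07, without a call. Of 4 stellate and fibroblast markers 0 passed in lsPERK and 1, Col3a1, fell in WT liver, with sums of 1067 to 1469, 1560 to 1796, 717 to 1434 and 1066 to 2097. Col3a1 stood at −0.67 in lsPERK and −0.82 in WT liver, and its responses were not called different (adjusted p = 0.858). The 5 lymphocyte markers, with sums of 172 to 184, 207 to 322, 111 to 282 and 142 to 275, and the 3 neutrophil markers, with 98.0 to 113, 115 to 511, 46.5 to 458 and 116 to 316, passed in neither response. Of 3 cholangiocyte markers, with sums of 153 to 270, 102 to 126, 156 to 210 and 122 to 196, Sox9 passed in lsPERK liver alone (1.44, adjusted p = 0.0237). In WT liver Sox9 stood at 0.97 (adjusted p = 0.0586), and its difference of responses did not pass (adjusted p = 0.616). Sox9 averaged 25.1 in lsPERK and 34.9 in WT controls, both under the filter threshold, and 68.1 and 68.2 after tunicamycin. The size of its rise is therefore uncertain. Epcam stood at −0.03 in lsPERK and 0.56 in WT liver, and Krt19 at 1.81 and −1.01, without a call. Krt7 was under the threshold on every array, and no marker was listed at 0. The part of these cells in the falls of Fas and of the caspases was not tested.

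Features of the arrays also differed between the groups. For β-actin, the 3′ probe set over the 5′ one averaged log2 0.68 ± 0.10 (n = 4) in lsPERK tunicamycin, 0.87 ± 0.25 (n = 3) in lsPERK control, 0.84 ± 0.25 (n = 4) in WT tunicamycin and 1.09 ± 0.15 (n = 3) in WT control livers (SD). With it as a covariate, Fas in lsPERK liver did not pass (−1.10, limma adjusted p = 0.0590). Arrays with high Xist signal made up 2 of 4, 2 of 3, 1 of 4 and 1 of 3 in that order of groups. With Xist status as a covariate all the calls of members above remained.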

How the data were processed

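Mouse liver RNA was measured on 14 Affymetrix arrays in 4 groups taken from the sample titles. The authors deposited 1 linear intensity per probe set and array, made with MAS5 in GCOS per the submitters' processing notes, and the array scaling target is not given in the sources used here. No scanner files were used. The 64 control probe sets were left out, the intensities were quantile normalized as log2 values, and probe sets above log2 5.37 (intensity 41.5, the pooled median) on at least 3 arrays were kept. Of the kept probe sets, 21808 carried 1 gene symbol in the platform annotation, and the one with the highest mean stood for each of 12085 genes.

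The 4 group means entered 1 model in limma 3.58.1 under R 4.3.3 (lmFit, eBayes with a trend, 10 residual degrees of freedom) for 5 contrasts, with Benjamini-Hochberg adjustment over all genes and calls at an adjusted p under 0.05. Intervals are 95% intervals of single genes from that fit. The number of arrays limits the precision.

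The members and lists were chosen with earlier results of these data known. All 8 members were described, with the 3 genes of highest Pearson's r for each member called in the WT response. From each list, up to 3 called genes with the lowest p in the WT response were named, and Ddit3 and Eif2ak3 for context. Lists covered other caspases, death receptors, ligands, adaptors, inhibitors and substrates, and markers of hepatocytes and 6 other liver cell types. Promoters came from RefSeq (GRCm38.p6), and figures were drawn with matplotlib 3.10.9 in Python 3.11.15. No pair of arrays shared more than 0.00444% of their values.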

Additional observations from a re-analysis of the deposited data

Results flagged for a closer look

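The tunicamycin response differed between genotypes for 2 members by the test of the difference itself. Casp9 fell by 0.64 on the log2 scale in lsPERK liver and by 1.71 in WT liver, a difference of responses of 1.07. Casp6 fell by 0.61 in lsPERK and by 1.39 in WT liver, a difference of 0.77. Of 16 groups of 4 arrays examined, 0 held a member value far from the others of its group by Dixon's criterion.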

How the results depend on the processing

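The main counts of called members were 4 in the lsPERK response, 5 in the WT response, 0 between control livers, 4 between tunicamycin livers and 2 for the difference of responses. Of all genes, 15.7%, 46.7%, 0%, 35.3% and 19.9% were called in that order. In the values as deposited, which carry the differences in array median, they were 1 in the lsPERK response, 3 in the WT response, 2 between tunicamycin livers and 0 for the difference of responses, and Casp8 in the WT response turned to 0.03. Median centring and the β-actin 3′ to 5′ ratio as a covariate each gave 2 called members between tunicamycin livers. Leaving out 1 array at a time gave 2 to 4 in the lsPERK response, 4 to 5 in the WT response, 0 between controls, 1 to 4 between tunicamycin livers and 1 to 3 for the difference of responses. Over 25 alternatives, 1 value of a called member turned its sign, and 40 lost and 7 gained a call, with 794 the same. The labels give the replicate numbers no shared origin. Deviations of same-numbered arrays correlated at r from −0.37 to 0.42 (median 0.24, 13 of 19 pairs over 0.1) and those of other pairs at −0.49 to 0.54 (median −0.17, 23 of 54 over 0.1). With 6 of 14 arrays correlating best with their own number, the numbers were not taken to pair the arrays, and as a replicate block they left the counts at 4, 5, 0, 4 and 2 in that order. Casp12 lay near the filter threshold and Tnfrsf10b under it, so signal over background limits both.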
